A study of Mus musculus with 11 samples.

Results

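A set of 37 genes of T cells and natural killer (NK) cells was examined in whole mouse aortic valves. The genes were chosen by symbol from those counted, 37 of 46983, and all were found. Wild type mice had surgery in which a wire damaged the valve endothelium in vivo, or sham surgery as the control, and valves were taken 48 h later, 1 mouse per library. The young age was 3 to 4 months and the aging one 16 to 18 months. Of the 11 libraries, 3 came from young sham mice, 3 from young injured mice, 3 from aging sham mice and 2 from aging injured mice, and no other treatment or genotype was labelled. Total counts ranged from 27124000 to 36353474 per library. Levels are given as CPM, the count scaled to the size of the library after adjustment by trimmed means (TMM), which does not account for gene length, so levels are compared between libraries and not between genes.

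T cells recognise antigen through a receptor made of an alpha and a beta chain or of a gamma and a delta chain, held at the membrane by the CD3 gamma, delta and epsilon chains and the zeta chain encoded by Cd247. On engagement the kinase Lck phosphorylates these chains, Zap70 binds to them, and Zap70 in turn phosphorylates the adaptor Lat. NK cells lack an antigen receptor, use the zeta chain with other receptors, and kill with perforin and granzymes as cytotoxic T cells do. The valve itself consists mainly of interstitial and endothelial cells, and in whole tissue fewer cells of a type and less RNA per cell cannot be told apart.

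Cd247, Cd3e and Cd3g were the 3 genes of the set in which every aging library lay above every young one, as 1.31% of all genes tested did. Their promoters are shown for that reason. The promoter of Cd3d, which was at 0 in aging injured 2, is added so that all 4 CD3 chain genes are included. Cd3g, Cd3d and Cd3e lie side by side within 40019 bases on chromosome 9 (chr9:44969572-45009590, mm10), and Cd247 lies on chromosome 1 (chr1:165788681-165877277, plus strand). The sequences below are the bases before the RefSeq transcription start (GRCm38.p6), 5′ to 3′ on the gene's strand, without any base that an annotated exon of the gene covers. Capitals mark 4 short motifs searched on both strands, namely GGAAGT of ETS factors, TGTGGT of RUNX factors, CTTTGA of TCF and LEF factors, and the E-box CANNTG. The windows are chr1:165788431-165788680 (plus strand) for Cd247, chr9:45009628-45009861 (minus) for Cd3e, chr9:44981536-44981785 (plus) for Cd3d and chr9:44980432-44980681 (minus) for Cd3g.
Cd247 promoter: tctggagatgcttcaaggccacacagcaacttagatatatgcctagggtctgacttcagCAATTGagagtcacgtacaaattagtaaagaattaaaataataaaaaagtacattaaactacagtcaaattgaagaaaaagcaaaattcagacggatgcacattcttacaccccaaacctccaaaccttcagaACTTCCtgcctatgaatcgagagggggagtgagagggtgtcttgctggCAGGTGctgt
Cd3e promoter: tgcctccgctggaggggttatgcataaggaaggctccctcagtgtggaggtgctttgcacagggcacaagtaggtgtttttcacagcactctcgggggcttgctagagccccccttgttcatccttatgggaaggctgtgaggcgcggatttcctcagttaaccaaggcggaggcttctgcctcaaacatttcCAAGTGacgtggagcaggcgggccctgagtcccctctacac
Cd3d promoter: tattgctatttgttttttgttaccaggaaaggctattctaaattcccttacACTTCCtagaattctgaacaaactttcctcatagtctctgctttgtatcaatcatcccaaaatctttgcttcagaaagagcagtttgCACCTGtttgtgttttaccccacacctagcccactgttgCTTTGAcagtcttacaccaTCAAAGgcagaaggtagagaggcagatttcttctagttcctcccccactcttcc
Cd3g promoter: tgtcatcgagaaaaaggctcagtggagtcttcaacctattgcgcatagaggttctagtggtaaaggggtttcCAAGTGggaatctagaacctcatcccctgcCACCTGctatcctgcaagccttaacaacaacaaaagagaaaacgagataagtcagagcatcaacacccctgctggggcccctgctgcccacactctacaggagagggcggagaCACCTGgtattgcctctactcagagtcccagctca
The E-box was present in each of these windows, with 2 matches before Cd247, 1 before Cd3e, 1 before Cd3d and 3 before Cd3g. The ETS motif had 1 match before Cd247 and 1 before Cd3d, the TCF and LEF motif had 2 matches before Cd3d, and the RUNX motif had 0 in these 4 windows. The window of Cd247 overlaps an exon of Gm16565, a transcript on the same strand. RefSeq windows of 250 bases were matched for 27 of the 37 genes, with 37 windows in all. The ETS motif stood in 45.9% of those and in 19.7% of all 32851 windows, the RUNX motif in 32.4% and 14.0%, the TCF and LEF motif in 13.5% and 13.8%, and the E-box in 78.4% and 66.2%. No motif match overlapped a match of another motif in the printed windows, and these shares are descriptions of letters and not of binding.

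Detection of these low-count genes differed between libraries. The 37 genes had a median of 175 counts summed over all 11 libraries, 14 had counts in every library, and 9 were at 0 in 4 or more. Young sham 1 had counts for 20 of the 37 genes, aging injured 1 for 25 and aging injured 2 for 26, and the other 8 libraries for 28 to 36. Those 3 libraries also had the fewest detected genes of all kinds, 18641 to 19015 against 20411 to 22533 elsewhere, although their totals of 28052207 to 36009433 counts were within the range of the others. Both aging injured libraries are thus of the low kind, and a difference between aging injured valves and another group cannot be told apart from this property of the libraries. By Xist and 4 Y-linked transcripts the young group held 3 females and 3 males and the aging group 4 females and 1 male. Young sham held 1 female and 2 males, and young injured and aging sham each 2 females and 1 male. Both aging injured mice were female. The sexes were thus unbalanced in the injury comparisons at both ages, and sex was not a term in any fit. Marker genes of the labelled tissue were present, with 8 of 8 valve interstitial and 6 of 6 valve endothelial genes counted in every library, and so were cardiac muscle genes, whose 10 markers summed to between 6299 and 30907 CPM.

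**Figure D1:**
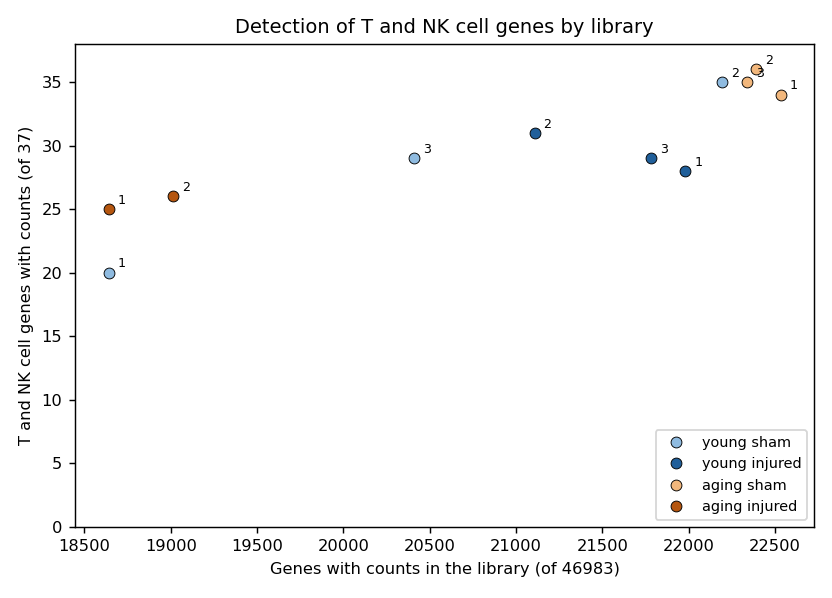
Number of T and NK cell genes with at least 1 count (of 37, y axis) against the number of all genes with counts (of 46983, x axis, which does not start at 0), 1 point per library, coloured by group and labelled with the replicate number. Young sham 1 and both aging injured libraries lie apart on the left with 20, 25 and 26 genes.

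Of the 37 genes, 29 passed the filter on low counts and were tested with edgeR's quasi-likelihood test. The other 8 were Cd8b1, Eomes, Gzma, Gzmb, Klrb1c, Ncr1, Themis and Txk. A gene is said to have risen or fallen at a Benjamini-Hochberg adjusted p under 0.1 over all 19366 genes tested together with a fold change over 2. No gene of the set passed in any of the 5 comparisons of the design. Those comparisons called 81 genes for injury in young valves (0.418% of the genes tested), 0 for injury in aging valves (0%), 5 for age in sham valves (0.0258%), 12 for age in injured valves (0.062%) and 0 for the interaction of injury and age (0%). A further comparison, added after the data were seen, set the mean of the 2 aging groups against the mean of the 2 young groups in the same fit. There 139 genes were called (0.718%), and 1 of the 29 was among them, Cd247. DESeq2 called 2 of the set for age in sham valves, 4 for age in injured valves and 6 for age averaged over surgery, where it called 200 (1.03%), 599 (3.09%) and 577 (2.98%) of all genes. It called 0 of the set for injury at either age and for the interaction, where it called 268 (1.38%, young), 329 (1.7%, aging) and 174 (0.898%) of all genes. With limma-voom 0 of the set were called in the 5 comparisons of the design, where 56 of all genes passed for injury in young valves (0.289%), 2 for age in sham valves (0.0103%), 11 for age in injured valves (0.0568%) and 0 for the other 2 (0%). For age averaged over surgery it called 1 of the set, Cd247, and 109 of all genes (0.563%).

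The 4 CD3 chain genes together stood at 0.609, 2.55 and 2.41 CPM in young sham valves and at 1.22, 2.70 and 1.98 CPM in young injured valves. In aging sham valves their sum was 7.07, 8.11 and 9.41 CPM, and in aging injured valves 11.8 and 8.27 CPM. Each aging library thus lay above each young one, with and without injury. Set against Ptprc, the gene of the pan-leukocyte antigen CD45, the sum was 3.34 to 14.1 per 100 CPM of Ptprc in young sham, 5.68 to 7.64 in young injured, 27.1 to 39.8 in aging sham and 34.1 to 39.2 in aging injured valves. Ptprc alone overlapped between the ages, at 18.1 to 44.1 CPM in young and 17.8 to 34.4 CPM in aging libraries. Among females alone the CD3 sum was 1.22 to 2.41 CPM in the 3 young and 8.11 to 11.8 CPM in the 4 aging mice.

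**Figure D2:**
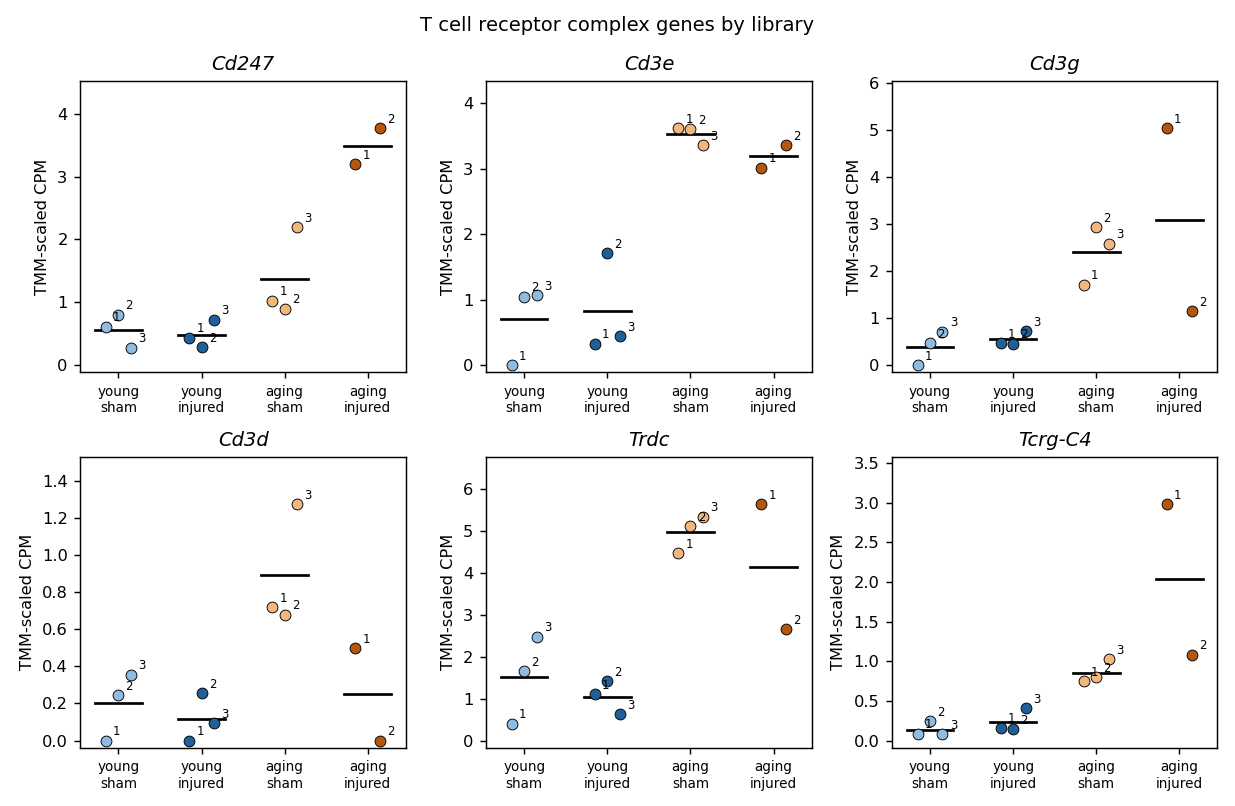
TMM-scaled CPM (y axis, each panel with its own scale from 0) of the 4 CD3 chain genes and of the receptor constant genes Trdc and Tcrg-C4 in the 4 groups, with 1 point per mouse labelled by replicate number and a line at the group mean. For Cd247, Cd3e, Cd3g, Trdc and Tcrg-C4 all 5 aging points lie above all 6 young points, while Cd3d is at 0 in aging injured 2.

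Cd247, the zeta chain shared by the T cell receptor and NK receptors, was at 0.609, 0.798 and 0.276 CPM in young sham and 0.432, 0.284 and 0.723 CPM in young injured valves. It was at 1.02, 0.894 and 2.19 CPM in aging sham and 3.20 and 3.77 CPM in aging injured valves. All aging values exceeded all young ones, and the aging injured values exceeded the aging sham ones. Averaged over surgery it rose with age by 2.06 ± 0.45 on the log2 scale (SE), or 4.18-fold, with 347 counts in the 5 aging and 103 in the 6 young libraries (edgeR adjusted p = 0.0764). The call held in 7 of 18 alternative fits, with adjusted p from 0.000501 with DESeq2 to 0.219 without aging sham 3, while the log2 difference stayed between 1.81 and 2.27. It was 1.27 ± 0.61 within sham valves (adjusted p = 0.561) and 2.85 ± 0.67 within injured valves (adjusted p = 0.154). Cd247 overlaps Pou2f1 on the opposite strand, and whether counting used strand is not given in the sources used here. Pou2f1 was at 13.3 to 21.7 CPM in all libraries, with ranges that overlapped between the ages.

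Cd3e, the epsilon chain (chr9:44998743-45009590), was at 0, 1.04 and 1.06 CPM in young sham and 0.324, 1.70 and 0.440 CPM in young injured valves. In aging sham it was at 3.62, 3.61 and 3.36 CPM and in aging injured valves at 3.02 and 3.36 CPM. The aging libraries were close to each other, and young sham 1 had 0 counts. The difference with age was 2.14 ± 0.73 on the log2 scale averaged over surgery (adjusted p = 0.223), 2.34 ± 1.01 in sham valves and 1.95 ± 1.06 in injured valves. Without young sham 1 and both aging injured libraries the sham difference was 1.74 ± 0.67 (adjusted p = 0.379).

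Cd3g, the gamma chain (chr9:44969572-44980431), was at 0, 0.460 and 0.710 CPM in young sham and 0.459, 0.455 and 0.723 CPM in young injured valves. It stood at 1.71, 2.93 and 2.58 CPM in aging sham and at 5.04 and 1.14 CPM in aging injured valves, which differed from each other more than any other group. The difference with age was 2.57 ± 0.71 averaged over surgery (adjusted p = 0.143), and 2.64 ± 0.99 and 2.49 ± 1.03 on the log2 scale in sham and injured valves. Without aging injured 1 the difference in injured valves was 1.06 and that averaged over surgery 1.85. When the 3 libraries of low detection, young sham 1 with its 0 counts and both aging injured ones, had their own term in the fit, the values were 9.74 and 5.89. That term was estimated only from young sham 1 against the other young sham libraries. These 2 values therefore rest on its 0 counts and have no fixed size. Cd3d, the delta chain, had 127 counts in all and 0 in 3 libraries, and its log2 difference with age was 1.60 ± 1.15 averaged over surgery (adjusted p = 0.546).

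Of the whole set, 3 genes had each aging library above each young one, namely Cd247, Cd3g and Cd3e, and 0 had the reverse. Among all genes tested 1.31% lay above and 0.511% below in this way. An unadjusted p under 0.05 for age averaged over surgery was found for 10 of the 29 genes, all higher in aging valves, and for 15% of all genes. The 10 were Cd247, Cd3g, Cd3e, Lat, Zap70, Lck, Il7r, Il2rg, Cd8a and Ccl5. The median log2 difference over the 29 was 1.28, and -0.02 over all genes. It was 1.24 over the 11 B cell genes and 0.35 over the 11 myeloid genes described below, so a positive median was not particular to this set.

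The receptor chains themselves are not among the 37 genes and were taken from a list of 8 constant region genes, of which 7 were tested. Averaged over surgery 3 of the 7 rose with age and 0 fell, and all 3 encode gamma or delta chains. Trdc, the delta constant region (chr14:54142851-54148868), was at 0.406, 1.66 and 2.48 CPM in young sham and 1.11, 1.42 and 0.629 CPM in young injured valves. It was at 4.47, 5.12 and 5.34 CPM in aging sham and at 5.65 and 2.66 CPM in aging injured valves. Again each aging library exceeded each young one, with a difference of 1.85 ± 0.43 on the log2 scale, or 3.60-fold (adjusted p = 0.0935). Tcrg-C4, a gamma constant region, was at 0.0789 to 0.409 CPM in the 6 young and 0.746 to 2.98 CPM in the 5 aging libraries, a 7.16-fold rise (2.84 ± 0.57, adjusted p = 0.0617). Tcrg-C1 rose 6.11-fold (2.61 ± 0.60, adjusted p = 0.0881), with aging injured 2 at 0.468 CPM and within the young range of 0.406 to 0.867 CPM. These calls held in 8 of 18 alternative fits for Trdc (adjusted p of 0.00203 to 0.238), 10 for Tcrg-C4 (0.000124 to 0.187) and 4 for Tcrg-C1 (0.000971 to 0.294), and Tcrg-C1 stood at 1.09 on the log2 scale without aging injured 1. Tcrg-C1, Tcrg-C2 and Tcrg-C3 are near-identical copies, as are Trbc1 and Trbc2, so the split of reads within each of those groups is uncertain.

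No alpha or beta constant gene was called, and their values differed from gene to gene. Trac, the alpha constant region, was at 0, 0.982 and 1.73 CPM in young sham, 0.891, 0.369 and 0.629 CPM in young injured, 0.939, 0.493 and 1.03 CPM in aging sham, and 0.213 and 1.05 CPM in aging injured valves. The groups overlapped, and the log2 difference with age was -0.06 ± 0.87 (adjusted p = 0.986). Trbc2, a beta constant region, had each aging library above each young one, at 0.702 to 2.24 against 0 to 0.614 CPM, with a difference of 1.95 ± 0.75 that did not pass (adjusted p = 0.270). Trbc1, the other beta constant region, had 0 to 31 counts in young and 16 to 50 in aging libraries, with overlap. Summed as counts, gamma and delta constant genes had 31 to 93 in young and 191 to 462 in aging libraries, and alpha and beta constant genes 0 to 85 in young and 76 to 108 in aging libraries. Whether the receptor classes differed from each other in their change with age was not tested. Among the variable segments, looked up after the constant genes had been seen and given without a test, Tcrg-V6 had 0 to 24 counts in young and 19 to 25 in aging libraries. Trdv4 had 7 to 36 counts in young and 11 to 59 in aging libraries, so both overlapped between the ages.

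Among the kinases and adaptors next to the receptor, Zap70, the kinase that binds phosphorylated CD3 and zeta chains (chr1:36761798-36782818), was at 0.0580, 0.338 and 0.0789 CPM in young sham and 1.27, 1.26 and 1.88 CPM in aging sham valves. In injured valves it was at 0.135, 0.966 and 0.943 CPM in young and 0.284 and 3.22 CPM in aging mice. The sham groups did not overlap and the injured groups did. The sham difference was 3.17 ± 1.07 on the log2 scale (adjusted p = 0.441) and the difference averaged over surgery 2.27 ± 0.75 (adjusted p = 0.210). It ranged from 0.96 without aging injured 2 to 2.86 without young sham 2 when single libraries were left out.

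Lat, the membrane adaptor on which the signalling complex assembles (chr7:126363824-126369570), was at 1.13, 1.14 and 2.76 CPM in young sham and 0.378, 0.568 and 0.880 CPM in young injured valves. Aging sham valves had 2.29, 1.51 and 2.05 CPM and aging injured valves 4.72 and 1.78 CPM. The young injured libraries were the lowest 3 of all, below every young sham library, with a difference of -1.45 ± 0.58 (adjusted p = 0.455). With age in injured valves Lat differed by 2.41 ± 0.63 (adjusted p = 0.180), and its interaction of injury and age was 2.19 ± 0.83 (adjusted p = 0.586). Without aging injured 1 these were 1.55 and 1.32. Lck, the kinase that starts receptor signalling, followed in the same order of groups. It was at 0.870, 0.460 and 1.38 CPM in young sham, 0.135, 0.199 and 0.597 CPM in young injured, 0.856, 0.925 and 1.42 CPM in aging sham, and 1.78 and 1.34 CPM in aging injured valves. Its difference with age in injured valves was 2.32 ± 0.77 on the log2 scale (adjusted p = 0.267). Skap1, an adaptor for integrin activation in T cells, was at 0 in 3 libraries and reached 0.885 CPM, and its sham groups did not overlap (2.77 ± 1.64, adjusted p = 0.637). Themis and Txk, a regulator of thymocyte selection and a Tec family kinase, were not tested, with 35 and 47 counts in all. Of the Themis counts, 24 came from aging injured 2.

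Coreceptors and costimulatory receptors had from 54 counts over all libraries, for Cd8b1, to 818, for Cd28. Cd4, the coreceptor of helper T cells that macrophages can also express, was at 0.0580, 0.767 and 1.70 CPM in young sham, 0.621, 2.73 and 1.48 CPM in young injured, 1.49, 1.42 and 1.84 CPM in aging sham, and 3.87 and 2.46 CPM in aging injured valves. The ages overlapped in sham and in injured valves (0.95 ± 0.63 averaged over surgery, adjusted p = 0.510). Cd8a, a chain of the coreceptor of cytotoxic T cells, was at 0, 0.0920 and 0 CPM in young sham and 0, 0.199 and 0 CPM in young injured valves, and at 0.221, 0.432 and 0.389 CPM in aging sham and 0.106 and 1.14 CPM in aging injured valves. It had 85 counts in all, of which 39 came from aging injured 2, and its difference with age was 3.23 ± 1.21 averaged over surgery (adjusted p = 0.258), and 1.97 without that library. Cd8b1, the partner chain, had 37 counts in young sham and 0 in young injured libraries, a level at least 13.9-fold lower against a floor of 3 counts over the group, and it was not tested.

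Cd28, the costimulatory receptor of resting T cells, was at 4.06, 3.53 and 2.96 CPM in young sham and 1.73, 1.22 and 2.83 CPM in young injured valves. It was at 1.71, 1.26 and 2.26 CPM in aging sham and at 4.01 and 0.322 CPM in aging injured valves. Young sham libraries were above the young injured and the aging sham ones without overlap, so that age in sham valves had the reverse direction of the CD3 genes, with log2 differences of -0.87 ± 0.69 for injury and -1.01 ± 0.69 for age (adjusted p = 0.770 and 0.694). Without aging injured 1, age averaged over surgery gave -1.79 and a call (adjusted p = 0.0761), against -0.42 ± 0.52 with all libraries (adjusted p = 0.755). Cd27, a costimulatory receptor of the tumour necrosis factor receptor family, was at 0.870, 0.368 and 0 CPM in young sham, 0.270, 0.0284 and 0.157 CPM in young injured, 0.497, 0.648 and 0.0708 CPM in aging sham, and 1.21 and 1.61 CPM in aging injured valves. Its injured groups did not overlap between the ages (3.18 ± 1.40, adjusted p = 0.386), and Cd27 overlaps Vamp1 on the opposite strand, which was at 14.6 to 21.5 CPM. The adhesion receptor Cd2 and the inhibitory receptors Cd5 and Cd6 ranged from 0 to 3.89, 0 to 0.987 and 0 to 1.37 CPM, and their groups overlapped in each comparison.

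Of the cytokine receptor chains, Il2rg, the gamma chain shared by several interleukin receptors, was counted most. It was at 6.55, 8.31 and 11.1 CPM in young sham, 7.45, 22.1 and 14.2 CPM in young injured, 11.2, 12.6 and 17.5 CPM in aging sham, and 17.7 and 28.2 CPM in aging injured valves. Aging injured valves were the highest group, and the difference with age averaged over surgery was 0.66 ± 0.27 on the log2 scale (adjusted p = 0.294). Gm20489, a gene on the same strand that overlaps Il2rg, ranged from 2.55 to 12.8 CPM, and reads of the 2 cannot be told apart. Il7r, which pairs with that chain to form the interleukin-7 receptor of resting T cells, was at 0.928, 1.99 and 4.02 CPM in young sham and 1.78, 2.39 and 1.95 CPM in young injured valves. It was at 2.84, 5.92 and 7.36 CPM in aging sham and 5.19 and 3.42 CPM in aging injured valves, and only the injured groups did not overlap between the ages. Its difference averaged over surgery was 1.15 ± 0.38 (adjusted p = 0.215). Il2rb, the beta chain of the interleukin-2 and interleukin-15 receptors, was at 0.203, 1.04 and 2.29 CPM in young sham, 1.13, 1.76 and 0.629 CPM in young injured, 1.33, 2.04 and 2.05 CPM in aging sham, and 0.568 and 2.54 CPM in aging injured valves, with overlap throughout (0.51 ± 0.60, adjusted p = 0.738).

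Per gene length, as the authors' RPKM values give it, levels could be set side by side for the 11 genes of the set in that table. The authors' values averaged 6.64 RPKM over the libraries for Il2rg, 1.70 for Tcf7, 1.55 for Cd3g, 1.53 for Cd3e, 1.49 for Ccl5 and 1.19 for Il7r. Cd2, Lat, Il2rb, Lef1 and Cd4 followed with 0.706, 0.700, 0.571, 0.545 and 0.473 RPKM. Il2rg stood above the other 10 in every library, whereas the ranges of the other 10 overlapped with those of their neighbours in this order. The value 0.1329 RPKM was repeated in 61 to 318 genes per library and was given to every gene of that table with 0 counts, so for those genes it is a fill value and not a measurement. Other genes with counts shared it, and 0 to 25 genes per library were listed below it, among them Ccl5 in young sham 1 at 0.129 RPKM.

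Among the transcription factors, Tcf7 and Lef1, which act in T cell development and in Wnt signalling of other cells, were counted in every library. Tcf7 was at 1.04, 1.72 and 4.42 CPM in young sham, 4.48, 5.97 and 6.35 CPM in young injured, 3.26, 3.73 and 5.17 CPM in aging sham, and 1.49 and 6.49 CPM in aging injured valves. The young groups did not overlap, with injured above sham by 1.23 ± 0.59 on the log2 scale (adjusted p = 0.567). Lef1 was at 5.28, 3.22 and 4.18 CPM in young sham, 6.02, 5.14 and 3.30 CPM in young injured, 2.90, 4.19 and 5.91 CPM in aging sham, and 4.51 and 2.69 CPM in aging injured valves. Its groups overlapped in each comparison, and the difference with age was -0.20 ± 0.28 (adjusted p = 0.799). These 2 genes therefore did not show the order of the CD3 genes.

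Tbx21, the factor of type 1 helper and NK cells, was at 0.783, 0.368 and 0 CPM in young sham, 0.0540, 0 and 0.0314 CPM in young injured, 0.193, 0.216 and 0.319 CPM in aging sham, and 1.46 and 0.234 CPM in aging injured valves. Young injured libraries had nearly no counts, and the log2 difference was -3.59 ± 1.48 for injury in young valves and 4.70 ± 1.58 for age in injured valves (adjusted p = 0.481 and 0.273). Of its 114 counts, 41 came from aging injured 1, without which the difference with age in injured valves was 2.87. Bcl11b, a factor of T cell commitment, ranged from 0.405 to 2.28 CPM, and its young injured libraries were below the young sham ones without overlap (-1.25 ± 0.63, adjusted p = 0.590). Ikzf3, an Ikaros family factor of lymphocytes, ranged from 0.0270 to 2.34 CPM, with aging sham above young sham without overlap (1.81 ± 1.11, adjusted p = 0.650). Eomes, a factor of NK and memory T cells, had 34 counts in all, was at 0 in 6 libraries and was not tested.

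Effector and NK receptor genes other than Ccl5 had few counts, while Ccl5 was counted in every library. Ccl5, a chemokine of activated T cells and NK cells that other cells can also make, was at 0.116, 0.583 and 0.394 CPM in young sham, 0.189, 2.44 and 0.849 CPM in young injured, 1.16, 1.63 and 2.16 CPM in aging sham, and 0.497 and 4.12 CPM in aging injured valves. The sham groups did not overlap, and the difference averaged over surgery was 1.58 ± 0.71 on the log2 scale (adjusted p = 0.330). It was 0.48 without aging injured 2, the highest library, and 2.16 without young injured 2. The 9 effector and NK receptor genes summed to 0.116 to 2.15 CPM in young sham, 0.891 to 5.91 CPM in young injured, 2.40 to 3.72 CPM in aging sham and 1.78 to 4.47 CPM in aging injured valves. Without Ccl5 the sums were 0 to 1.66, 0.702 to 3.47, 1.24 to 1.57 and 0.351 to 1.28 CPM, and the highest was that of young injured 2. Without Ccl5, and unlike the CD3 sum, this sum overlapped between the ages in each kind of surgery.

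Klrk1, the activating receptor NKG2D, was at 0, 0.399 and 0.670 CPM in young sham, 0.216, 1.36 and 0.440 CPM in young injured, 0.635, 0.771 and 0.248 CPM in aging sham, and 0 and 0.0585 CPM in aging injured valves. The aging injured libraries, with 2 counts between them, were below every aging sham and every young injured library (-4.01 ± 1.80 and -4.29 ± 1.81 on the log2 scale, adjusted p = 0.562 and 0.372). The sign turned once the 3 libraries of low detection had a term of their own in the fit, to 3.12 ± 2.72 and 2.84 ± 2.65. Both aging injured libraries are among those 3, so the term was estimated only from young sham 1 against the other young sham libraries. Klrk1 had 0 counts in young sham 1, so the turned sign rests on that library. Nkg7, a granule protein of cytotoxic cells, was at 0, 0.338 and 0 CPM in young sham, 0.0810, 0.199 and 0 CPM in young injured, 0.249, 0.247 and 0.389 CPM in aging sham, and 0 and 0 CPM in aging injured valves. That is 28 counts in aging sham and 0 in aging injured libraries, a level at least 6.01-fold lower against a floor of 3 counts over the group. Klrd1, the CD94 chain of NK receptors, ranged from 0 to 1.34 CPM, highest in young injured 2, and Prf1, which encodes perforin, from 0 to 0.631 CPM, and the groups of both overlapped in each comparison. Gzma, Gzmb, Klrb1c and Ncr1, which encode granzymes A and B and the receptors NK1.1 and NKp46, had 9, 20, 24 and 39 counts in all, and 29 of the Ncr1 counts came from aging injured 1. Ms4a4b, a membrane protein of T cells, was at 0, 0.0307 and 0.0394 CPM in young sham, 0.0810, 0.312 and 0.220 CPM in young injured, 0.221, 0.894 and 1.03 CPM in aging sham, and 0.213 and 0 CPM in aging injured valves. Its sham groups did not overlap (4.77 ± 1.47, adjusted p = 0.404), nor did its young groups (2.99 ± 1.43, adjusted p = 0.571), and the interaction was -5.72 ± 2.09 (adjusted p = 0.562).

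**Figure D3:**
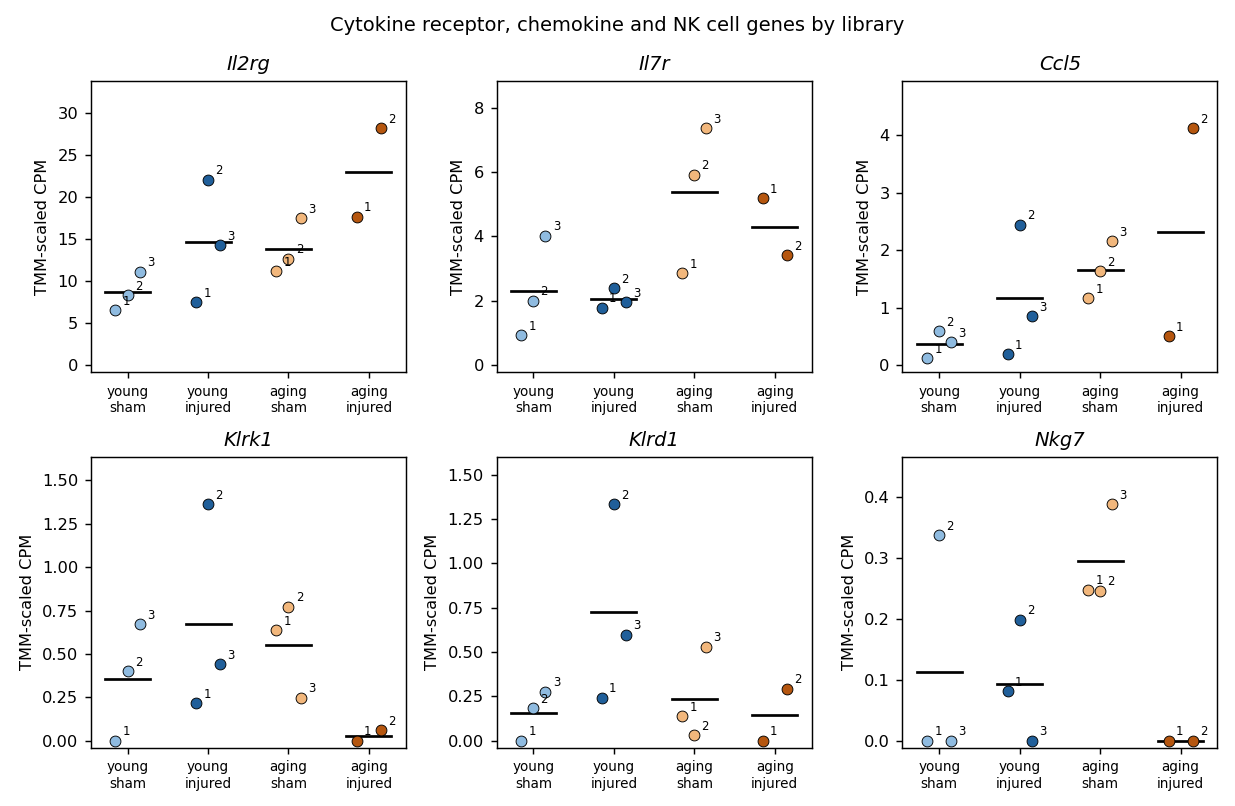
TMM-scaled CPM (y axis, each panel with its own scale from 0) of 2 cytokine receptor genes, the chemokine Ccl5 and 3 NK cell genes in the 4 groups, with 1 point per mouse labelled by replicate number and a line at the group mean. Il2rg and Ccl5 have their highest point in aging injured 2, and Klrk1 and Nkg7 are at or near 0 in both aging injured libraries.

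**Figure D4:**
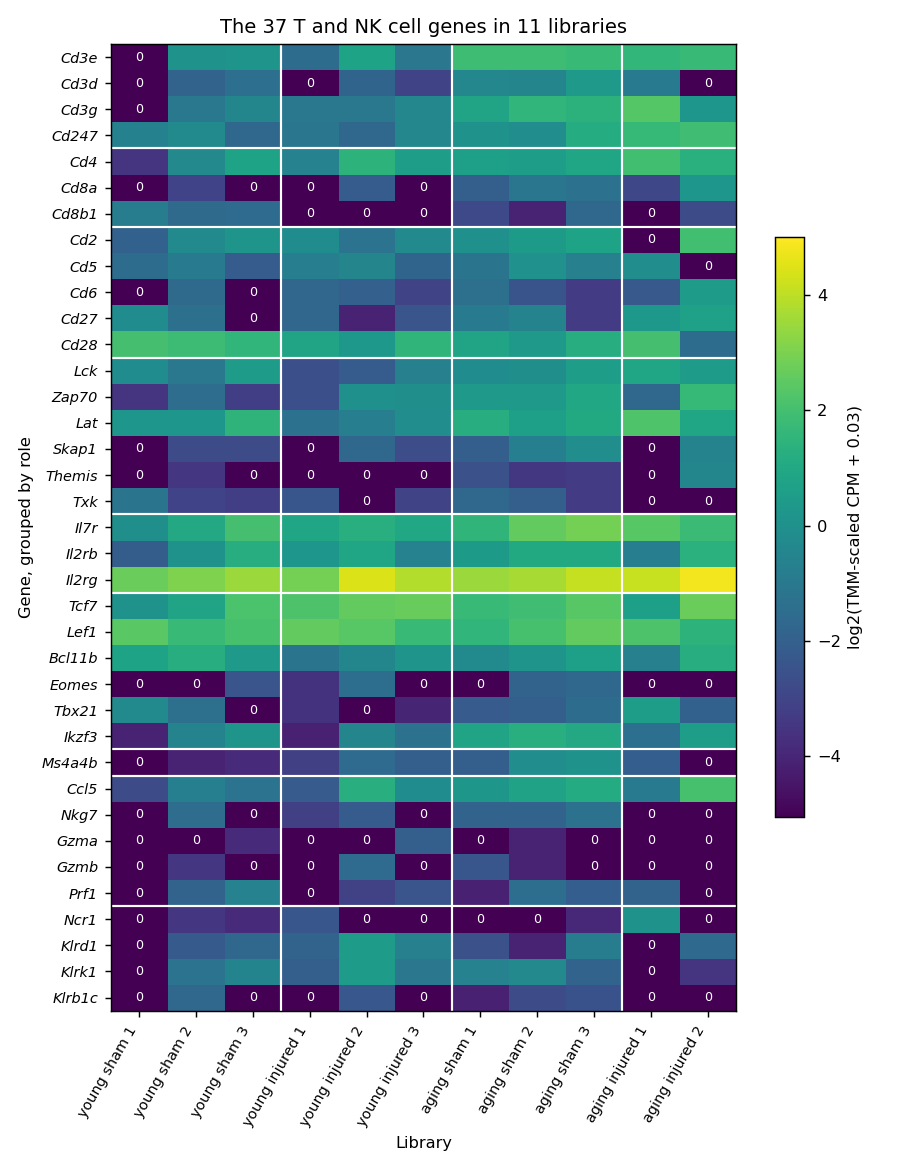
Levels of the 37 genes (rows, grouped by role) in the 11 libraries (columns, grouped by age and surgery) as log2 of TMM-scaled CPM plus 0.03, with cells of 0 counts marked 0. The rows of Cd247, Cd3e and Cd3g are lighter in the aging columns, while Cd3d is at 0 in aging injured 2. The cells at 0 gather in young sham 1, in both aging injured columns and in the rows of effector and NK genes other than Ccl5.

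Read by comparison, no gene of the set passed the test for injury at either age. In young valves 2 of the 29 genes had an unadjusted p under 0.05, Lat and Tbx21, both lower after injury, against 9.19% of all genes. The young injured libraries were all above the sham ones for 2 genes, Tcf7 and Ms4a4b (9.54% of all genes), and all below for 3, Lat, Cd28 and Bcl11b (5.07%). The median log2 difference of the 29 was 0.19, and 0.01 over all genes. In aging valves 2 genes had an unadjusted p under 0.05, Nkg7 and Klrk1, both lower after injury, against 8.83% of all genes. There 4 genes were above without overlap, Cd247, Cd27, Cd4 and Il2rg (11.1% of all genes), and 6 below, Cd3d, Cd3e, Ikzf3, Klrk1, Ms4a4b and Nkg7 (16.7%), and the median was 0.26 against -0.01 over all genes.

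With age in sham valves 5 of the 29 genes had an unadjusted p under 0.05, all higher in aging mice, against 9.19% of all genes in either direction. These were Cd3e, Cd3g, Zap70, Il7r and Ms4a4b. Aging sham libraries were all above the young sham ones for 11 genes (11.8% of all genes) and all below for 1, Cd28 (9.08%). With age in injured valves 7 genes had an unadjusted p under 0.05, of which 6 were higher, Cd247, Cd3g, Cd27, Lck, Lat and Tbx21, and 1 lower, Klrk1, against 12.5% of all genes. There 8 were above without overlap (9.89% of all genes) and 1 below, Klrk1 (14.5%). The medians were 0.93 in sham and 1.05 in injured valves, against 0.02 and -0.04 over all genes. For the B cell genes they were 1.30 and 0.41, and for the myeloid genes 0.41 and 0.30. The interaction of injury and age had an unadjusted p under 0.05 for 4 genes, Lat and Tbx21 positive and Klrk1 and Ms4a4b negative, against 7.86% of all genes.

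The age comparisons in sham and in injured valves share no library, but they come from the same fit. The log2 difference was positive in both for 17 of the 29 genes, negative in both for 0, and of opposite sign for 12. It was over 1 in both for 9, namely Cd247, Cd3d, Cd3e, Cd3g, Cd8a, Ikzf3, Il7r, Skap1 and Zap70. Over all genes tested 52.3% were positive in sham and 46.4% in injured valves. The share of all genes positive, or over 1, in both was not counted, so these counts have no background. Among those of opposite sign were Tbx21, Cd27, Klrk1, Nkg7 and Ms4a4b, which had 49 to 188 counts each over all libraries. Lef1, Tcf7, Cd28 and Bcl11b, with 1529, 1431, 818 and 440 counts, were also of opposite sign. The rest were Cd5, Klrd1 and Prf1, with 175, 119 and 57 counts. Of the 37 genes, 18 had their highest level in an aging injured library, 12 of them in aging injured 2, and 8 in an aging sham library. The other 11 were highest in young libraries, 6 of them after injury. In which library all other genes were highest was not counted, so these counts have no background either. Both aging injured libraries are of low detection.

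**Figure D5:**
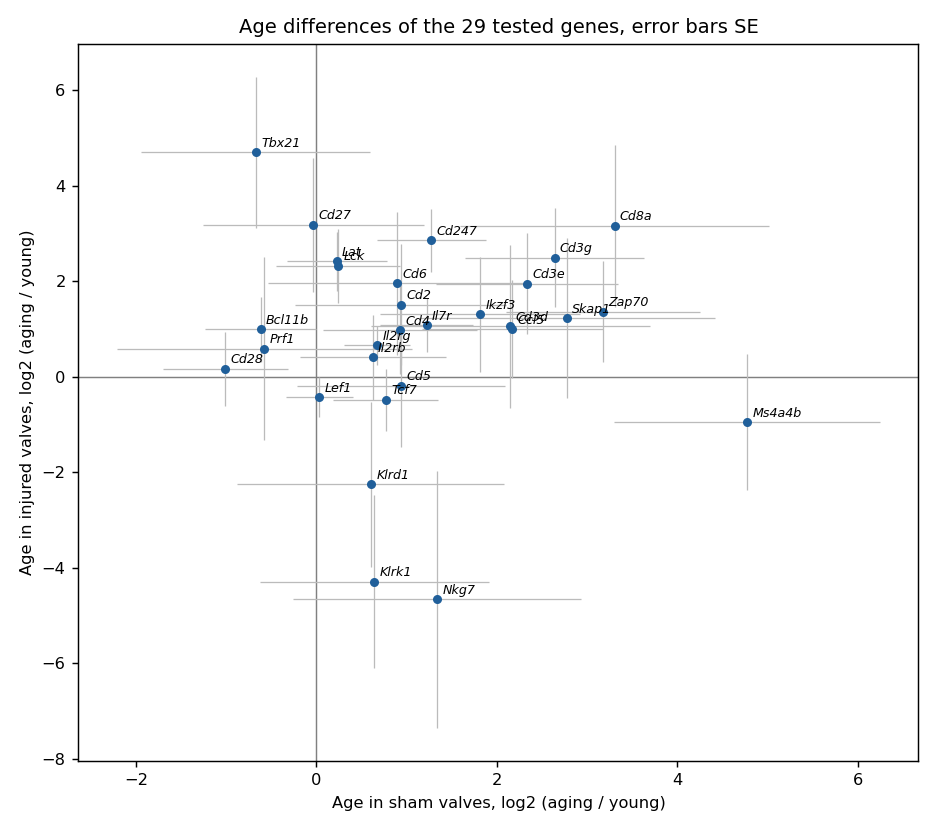
Log2 difference between aging and young valves for the 29 tested genes, in sham valves (x axis) and in injured valves (y axis), with bars of 1 SE. The CD3 genes, Zap70 and Cd8a lie at the upper right, and Nkg7, Klrk1 and Klrd1 below 0 on the y axis, where the fitted value of Nkg7 rests on 0 counts in aging injured valves and has no fixed size.

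Other T cell genes were read from lists that held none of the 37. Of 23 genes of T cell signalling and membranes, 20 were tested, and 1 rose and 0 fell with age averaged over surgery. Gimap3, a GTPase that supports lymphocyte survival, was at 2.06, 2.58 and 0.946 CPM in young sham, 0.729, 0.710 and 1.63 CPM in young injured, 2.51, 6.17 and 6.44 CPM in aging sham, and 10.9 and 4.65 CPM in aging injured valves. It rose 4.52-fold (2.18 ± 0.41 on the log2 scale, adjusted p = 0.0483), and aging sham 1 was within the young range. The call held in 12 of 18 alternative fits, with adjusted p from 4.16e-05 to 0.166. Thy1, which T cells share with fibroblasts, was at 27.4 to 39.0 CPM in young and 36.7 to 80.4 CPM in aging libraries and stayed under 2-fold (0.74 ± 0.17, adjusted p = 0.0881), as did Prkcq, the protein kinase C theta of T cells that muscle also expresses (0.95 ± 0.21, adjusted p = 0.0830). Gimap4, a related GTPase, was at 3.75 to 13.8 CPM with overlap between the ages.

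Of 29 genes of T cell subsets 21 were tested. With age 0 were called, and Cxcr6, a chemokine receptor of tissue-resident lymphocytes, was at 0 to 1.04 CPM in young and 1.99 to 5.15 CPM in aging libraries (2.81 ± 0.76, adjusted p = 0.134). The most counted gene of that list was S1pr1, a receptor of lymphocyte egress that endothelium expresses, at 20.6 to 71.7 CPM. The cytokine genes Ifng and Il17a were at 0 in all 11 libraries. Of 31 further NK cell genes 14 were tested and 0 called in any comparison, with Itga2 and Gzmm the most counted at 1.52 to 5.16 and 1.24 to 2.77 CPM. Of 15 genes of lymphocyte attractants and growth factors 12 were tested and 0 called, with Cx3cl1 at 49.5 to 118 CPM and Cxcl16, the ligand of Cxcr6, at 25.2 to 64.4 CPM. Of 8 genes of innate lymphoid cells of type 2, 6 were tested and 0 called, and Rora and Il1rl1 were the most counted, at 49.0 to 68.9 and 2.07 to 5.55 CPM. Thymus tissue was checked because the gland lies near the heart base. The recombination genes Rag1, Rag2 and Dntt and the thymic epithelial genes Psmb11 and Foxn1 were at 0 in every library. The other 4 genes of that list of 9 were counted, Ptcra with 0 to 3, Arpp21 with 0 to 35 and Ccr9 with 0 to 40 counts per library, and Cd1d1, which myeloid cells also express, with 25 to 341. Ccr9 was highest in aging injured 1 and Cd1d1 in aging injured 2, and the list summed to 0.702 to 5.71 CPM in the other 10 libraries and to 10.6 CPM in aging injured 2.

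Markers of other cells moved with some of the same groups, and their part in the results was not tested except where stated. The 11 B cell genes summed to 14.4 to 30.0 CPM in young sham, 16.8 to 21.5 CPM in young injured, 29.8 to 69.7 CPM in aging sham and 25.6 to 112 CPM in aging injured valves. Among them Ighm, the heavy chain of immunoglobulin M, rose 3.10-fold with age averaged over surgery (1.63 ± 0.39, adjusted p = 0.0962), with 101 CPM in aging injured 2. Without that library Ighm stood at 0.70 (adjusted p = 0.191), and its call held in 4 of 18 alternative fits. The 11 myeloid genes were all counted in every library and summed to 621 to 827 CPM in young sham, 673 to 1137 CPM in young injured, 696 to 970 CPM in aging sham and 1077 to 1080 CPM in aging injured valves, with overlap between the ages. The 4 pan-leukocyte genes summed to 99.0 to 143, 126 to 274, 123 to 178 and 190 to 203 CPM in the same order of groups. Of 9 neutrophil genes, Ly6g was at 0 in 10 libraries, and the sum was 3.16 to 24.0 CPM. The 9 erythroid and platelet genes summed to 35.7 to 117 CPM in young sham, 34.2 to 79.8 CPM in young injured, 50.2 to 65.6 CPM in aging sham and 42.0 to 69.2 CPM in aging injured valves, and the 5 lymphatic endothelial genes to 118 to 275 CPM over all groups. The 7 adipocyte genes summed to 134 to 278 CPM in young sham, 57.0 to 297 CPM in young injured, 74.1 to 156 CPM in aging sham, and 191 and 564 CPM in aging injured valves. Aging injured 2, in which 12 of the 37 genes peaked, was the highest library for this sum, and Lep was at 0 in 1 library. All 7 had a positive log2 difference for age in injured valves (median 1.15) and for injury in aging valves (median 1.88, 3 with an unadjusted p under 0.05), and 0 were called. The 7 mast cell genes summed to 18.0 to 34.0, 9.13 to 35.3, 17.5 to 23.6 and 27.6 to 33.8 CPM in the same order of groups, with 0 called. The 10 cardiac muscle genes summed to 16506 to 29754, 7142 to 30907, 6299 to 18592 and 10228 to 11552 CPM in the same order. With their score as a covariate Cd247 differed with age by 2.25 on the log2 scale (adjusted p = 0.169). That was close to its value without the covariate and over 2-fold, but the adjusted p was not under 0.1.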

How the data were processed

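RNA-seq of whole aortic valves was analysed in 11 libraries. The build was mm10 and TopHat2 2.1.0 was among the tools, per the submitters' processing notes. How reads were counted, with or without strand, and against which annotation is not given in the sources used here. The authors deposited raw counts for 46983 genes and RPKM values for 13526 genes, 11 of the 37 among them. In the counts, 1 library column matched no sample label and was not used, and 0 rows named no gene. Counts were tested with edgeR 4.0.16 in R 4.3.3 (quasi-likelihood F test, TMM scaling, filterByExpr with a minimum count of 10, 19366 genes, common biological coefficient of variation 0.377). All 11 libraries entered 1 fit with 4 group means, so that the groups shared the estimate of the spread. Replicates were separate mice, and pairs within a group differed beyond sampling noise (chi-square per degree of freedom of 20.9 to 228.4). Calls needed an adjusted p under 0.1 and a fold over 2, as in the series' design text. The SE of a log2 difference was its size over the square root of F. Bounds use a floor of 3 counts over the group, which covers counting error only. Totals of 27124000 to 36353474 counts make 1 count 0.027 to 0.0394 CPM. The fit was tested on simulated data.

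The members, the lists, the tests and the alternatives were chosen with earlier results of these data known, so none of them is independent of these data. Values per library are given for genes called or with an unadjusted p under 0.05 in any comparison and for the 12 most counted genes of the set, and other genes by their range. From the other lists of T cell, NK cell, attractant, innate lymphoid and thymus genes, called genes and the 2 most counted were in most cases named. Further ones were chosen after their values were seen. Lists of other cells are given mainly as sums or by detection, and not all of their called or most counted genes are named. A gene of those lists is not reported here. Alternatives were size factors by relative log expression, no filter, DESeq2 1.42.0, limma-voom (limma 3.58.1), each library left out, a replicate block, only the groups compared, a term for the 3 libraries of low detection, a cardiac muscle score as covariate, and no fold threshold. Age averaged over surgery, and fits without those 3 libraries, were added after seeing the data.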

Additional observations from a re-analysis of the deposited data

How the results depend on the processing

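No gene of the set was called for injury at either age or for the interaction in any alternative run. For age in sham valves the count of 0 became 2 with DESeq2 (Zap70 and Ms4a4b), and it stayed 0 without the 3 libraries with fewer detected genes. For age in injured valves it became 4 with DESeq2 (Cd247, Lat, Lck and Tbx21) and 2 with the term for those 3 libraries (Cd3g and Cd3e), and ranged from 0 to 1 when single libraries were left out, with Cd247 called without aging injured 1. For age averaged over surgery the count of 1 became 6 with DESeq2, 4 with that term, 0 with the replicate block and 0 with the cardiac muscle score. It ranged from 0 to 3 when single libraries were left out. It was 2 without young sham 1, 3 without aging injured 1 and 3 without aging injured 2, and 0 without any of the other libraries. The cause of these moves was not tested. Klrk1 reversed with the term for the 3 libraries, to 3.12 for injury in aging valves, 2.84 for age in injured valves and 2.78 for the interaction on the log2 scale. With no other aging injured library, that term was estimated only from young sham 1 against the other young sham libraries. Young sham 1 had 0 counts of Klrk1, Cd3e and Cd3g, so this reversal and the Cd3g and Cd3e calls with the term rest on that library. A fit of age averaged over surgery without the 3 libraries was not run, since no aging injured library remains.

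Counts over all genes moved more. They ranged from 15 to 447 for injury in young valves, 0 to 329 for injury in aging valves, 0 to 200 for age in sham valves, 0 to 599 for age in injured valves, 0 to 174 for the interaction and 25 to 577 for age averaged over surgery. The highest value was that of DESeq2 except for injury in young valves, where it was that without young injured 3. Of the 139 genes for age averaged over surgery 72 were higher, and with limma-voom 84 of 109 were. Deviations of libraries from their group means were correlated between groups. The values were -0.252 to 0.44 for the same replicate number and -0.394 to 0.455 for different ones. With 2 or 3 libraries per group this cannot exclude a pairing of mice by number. With the replicate block Cd247 stood at 2.09 (adjusted p = 0.133). At 1 count per 0.027 to 0.0394 CPM, levels of the effector and NK genes other than Ccl5 rest on few counts. A value of 0 there says only that a gene was not detected at this depth.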

Other observations

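Counts of some genes of the set came mostly from 1 mouse. Gzma, a granzyme, had 9 counts in all, and 77.8% of them were in young injured 3. Ncr1, the NK receptor NKp46, had 74.4% of its 39 counts in aging injured 1. Themis, a regulator of thymocyte selection, had 68.6% of its 35 counts in aging injured 2, and Gzmb, another granzyme, 55.0% of its 20 counts in young injured 2. Cd8a and Cd6 had 45.9% and 45.6% of their counts in aging injured 2. By contrast Lef1 and Tcf7, with 1529 and 1431 counts, had 14.6% and 15.5% in their highest library.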
